A study of Saccharomyces cerevisiae with 8 samples.

Results

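The snR genes of *S. cerevisiae* give rise to small nucleolar and small nuclear RNAs, which are not translated. The members were chosen by their IDs, which start with snR and a digit, and by their counts, at least 10 summed over the 8 libraries, which gave 80 of 81 such IDs, out of 7126 genes in the count table. By the deposited gene descriptions, 45 of the 80 were box C/D snoRNAs, 29 were box H/ACA snoRNAs, 2 were the U3 genes snR17a and snR17b, and 4 were spliceosomal RNAs, namely snR6 (U6), snR7-L (the long form of U5), snR14 (U4) and snR19 (U1). Just inside the limit stood snR53 with 14 counts in all, then snR73 with 34 and snR65 with 36. The ID outside it was snR7-S, the short form of U5, with 0 counts in each library. Its span lies within that of snR7-L, and a read that overlaps 2 genes is counted for neither.

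Box C/D snoRNAs guide methylation of the ribose in ribosomal RNA (rRNA), and box H/ACA snoRNAs guide the change of uridine to pseudouridine. Each works as a particle, in which base pairing between the RNA and the rRNA picks the site and a bound protein, Nop1 or Cbf5, does the chemistry. A few snoRNAs, U3 among them, are needed to cut the rRNA precursor instead. In yeast most snoRNAs are made from genes of their own, some from arrays cut out of 1 transcript and some from introns of other genes, and their mature forms end without a poly(A) tail.

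Total RNA was extracted from 2 cultures of each of 4 groups, which differ in strain and medium. The libraries sequenced were made with a kit whose usual protocol selects RNA by its poly(A) tail. CRN carries MATa, ade2, his3, ura3 and the deletion ppn1delta::CgTRP1, so the strain that the labels give as WT lacks PPN1, a gene for an enzyme that breaks down inorganic polyphosphate. CRN/PPN1 is CRN bearing the vector pMB1/PPN1 Sc, which overexpresses this gene. CRN/PPN1 was grown for 16 h and CRN for 40 h in YPD with 5 mM MnSO4 (manganese excess), and both strains for 12 h in YPD without it (control), all with 14 mM KH2PO4 at 29 °C and 145 rpm. Growth time thus differed with both strain and medium in manganese, and these cannot be told apart. The promoter of the vector and the number of transformants used are not given in the sources used here. The 2 replicates of a group came from parallel cultures, so the p-values measure the spread between such cultures.

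PPN1 reached 7132 and 8394 normalized CPM (counts per 1000000 of the normalized library size) in CRN/PPN1 in manganese, against 7.59 and 0.514 in CRN in manganese. In control medium CRN/PPN1 had 2945 and 3057 CPM of PPN1, against 5.58 and 3.93 CPM for CRN. Libraries held 2309776 to 3579469 gene counts, of which 2509 to 21160 fell on the snR genes. The normalization factors (TMM) of the libraries ranged from 0.508 to 1.63. Low members rest on few counts, and each CRN library in manganese had 10 of the 80 at 0.

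**Figure D1:**
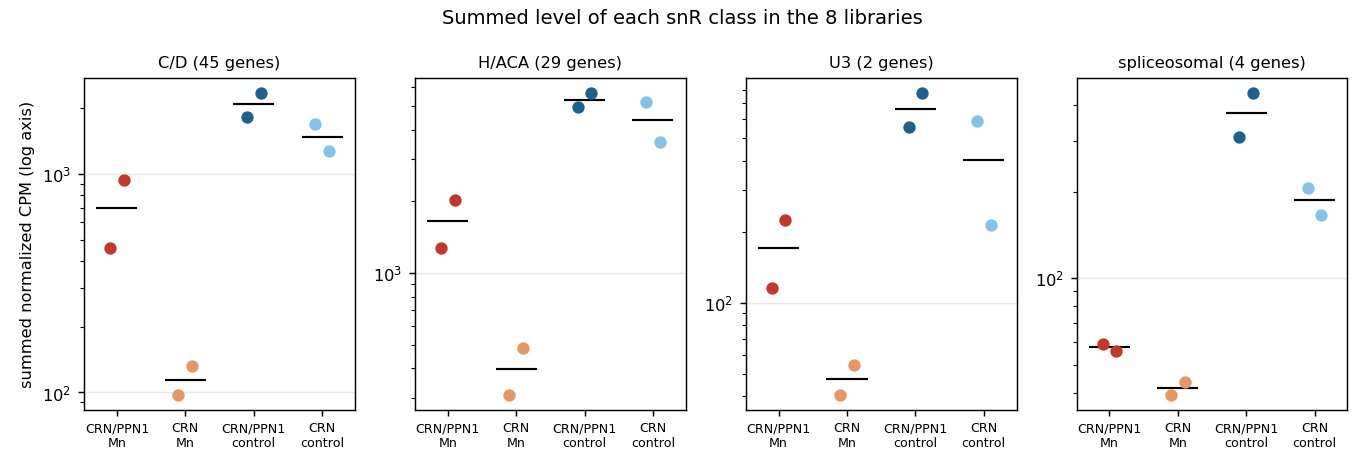
Summed level of box C/D, box H/ACA, U3 and spliceosomal genes in each library, in normalized CPM on a log axis; each point is 1 library and each line the mean of 2. For the box C/D genes the libraries of CRN in manganese sit at 97.7 and 131, below every other library.

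The sequences of 6 snoRNAs whose values recur below show how the classes differ. They are from RefSeq (R64, the same build as the counts' annotation), given as DNA from 5′ to 3′, and all 81 IDs matched. Capitals in the box C/D snoRNAs mark the guide, the stretch of at least 9 bases that pairs without a mismatch with rRNA. The 5th base before the box that follows (CTGA in these) pairs with the described target. That box is the box D near the 3′ end in snR39B. In snR56, snR77, snR78 and snR76 it is a box with the same letters further inside the gene. Capitals in snR10 mark the ACA, the box of its class, 3 bases from its 3′ end.
snR56: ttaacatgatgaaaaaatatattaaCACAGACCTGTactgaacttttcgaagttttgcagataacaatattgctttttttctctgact
snR39B: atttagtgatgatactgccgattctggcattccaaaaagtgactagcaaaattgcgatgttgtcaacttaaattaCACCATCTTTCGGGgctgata
snR77: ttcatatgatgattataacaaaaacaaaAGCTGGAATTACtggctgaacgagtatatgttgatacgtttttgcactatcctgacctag
snR78: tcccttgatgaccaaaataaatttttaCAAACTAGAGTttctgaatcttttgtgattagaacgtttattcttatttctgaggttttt
snR76: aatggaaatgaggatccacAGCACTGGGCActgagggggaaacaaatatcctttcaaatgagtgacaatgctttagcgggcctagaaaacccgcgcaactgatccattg
snR10: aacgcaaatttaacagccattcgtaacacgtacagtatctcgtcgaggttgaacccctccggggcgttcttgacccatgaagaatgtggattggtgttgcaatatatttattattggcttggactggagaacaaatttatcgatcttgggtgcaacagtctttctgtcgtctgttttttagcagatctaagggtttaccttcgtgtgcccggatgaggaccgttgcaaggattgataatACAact
snR56 (chrII:88190-88277, plus strand) pairs over 11 bases with the small-subunit rRNA stretch acaGgtctgtg, whose capital is the target G1428. snR39B (chrVII:366374-366469, minus strand) pairs over 14 bases with cccGaaagatggtg around G805 of the large-subunit rRNA. snR77 (chrXIII:297506-297593, plus strand) targets U578 of the small-subunit rRNA, snR78 (chrXIII:297278-297364, plus strand) U2421 and snR76 (chrXIII:297725-297833, plus strand) C2197 of the large-subunit rRNA, and these 3 are neighbours in 1 cluster. snR10 (chrVII:345986-346230, plus strand) guides a pseudouridine at U2923 of the large-subunit rRNA and shares its locus with YGL088W, so reads over both were not counted.
Of the 45 box C/D genes, 36 (80.0%) hold the box C letters TGATGA within their first 15 bases and 43 (95.6%) the box D letters CTGA within their last 15, on the RNA's own strand, against 1.27% and 8.21% of all annotated genes. The letters ACA lie within the last 15 bases of 19 of the 29 box H/ACA genes (65.5%), against 16.9% of all annotated genes. A guide of the kind marked above was found for 33 of the 43 box C/D members with a described target, 10 to 16 bases long with a median of 11. In some of them the box after the guide differs from CTGA by a base, as ATGA in snR18 and CCGA in snR190. No match means only that these letters are not in that window.

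In both strains the snR genes were lower in manganese, and CRN in manganese was the lowest group. Their share of all gene counts was 0.247% and 0.429% in CRN/PPN1 in manganese, against 0.613% and 0.780% in CRN/PPN1 in control medium. In CRN it was 0.0785% and 0.117% in manganese, against 0.391% and 0.339% in control medium. The normalized levels summed to 1912 and 3256 CPM in CRN/PPN1 in manganese and to 488 and 715 CPM in CRN in manganese, against 7680 and 9207 CPM in CRN/PPN1 and 7708 and 5208 CPM in CRN in control medium. The group mean of CRN in manganese was the lowest of 4 for 72 of the 80 members, and that of CRN/PPN1 in control medium the highest for 67. The order CRN in manganese, CRN/PPN1 in manganese, CRN in control, CRN/PPN1 in control, from low to high, held for 51. Within CRN/PPN1 in manganese, replicate 2 was above replicate 1 for 63 of the 80, by a median log2 difference of 0.71, so the libraries of this group differed as a whole. In CRN in control medium replicate 1 was above replicate 2 for 55.

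For each comparison, 73 of the 80 members were tested with edgeR among 5778 genes, those with at least 2 CPM in at least 4 libraries. A call needed a Benjamini-Hochberg adjusted p no higher than 0.05 together with a log2 fold change of 1 or more in size. Fold changes are on the log2 scale and are given ± their standard error (SE). Since a member could pass the filter through the groups in which it is high, the counts below are a description of the 73 beside the same share of all tested genes.

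In CRN, 61 of the 73 members fell in manganese and 0 rose, where 24.0% of all tested genes were called lower and 24.7% higher. No member was higher at an unadjusted p under 0.05, and DESeq2 also called 61 lower and 0 higher. The median log2 fold change was -3.33, against 0.09 for all tested genes. It was -3.60 for the 29 box H/ACA members, of which 28 fell, and -3.18 for the 39 box C/D members tested, of which 29 fell, or -3.14 with the members of at most 3 counts in each library of a group set at their bounds. The difference between the classes was not tested. In all 80, both libraries in manganese were below both in control medium for 70 members and above them for 2, snR38 and snR54, which stood at 3 or fewer counts in each CRN library in control medium. Of all tested genes 39.7% lay below and 44.3% above in this way.
snR56 had 0 and 0.857 normalized CPM in CRN in manganese, against 60.1 and 47.2 in control medium, a log2 fold change of -6.76 ± 0.72 (edgeR, adjusted p = 7.94e-07). snR10 had 1.17 and 1.89 CPM in manganese, against 148 and 103 CPM in control medium, or -6.31 ± 0.38 on the log2 scale (edgeR, adjusted p = 2.78e-09). snR63, a box C/D guide for A2256 of the large-subunit rRNA and at 255 bases the longest of its class, had 2.72 and 6.86 CPM in manganese, against 214 and 290.5 CPM in control medium. None of these 3 overlapped between the media. The other members with the largest falls were snR64, a guide for C2337 of the large-subunit rRNA, with -5.11 ± 0.66 on the log2 scale, and snR87, which targets A436 of the small-subunit rRNA. snR87 had at most 3 counts in each CRN library in manganese, so its level on the counted strand was at least 15.9-fold lower there. Of all reads over snR87 68.4% lay on the other strand, and with either strand counted its log2 fold change was -2.47. At the other end snR86, the longest box H/ACA gene at 1004 bases, had 49.4 and 71.7 CPM in manganese, against 79.9 and 105 CPM in control medium, a log2 fold change of -0.61 ± 0.27 that did not pass (edgeR, adjusted p = 0.0582), with no overlap between the media. It was the member with the most counts in both CRN libraries in manganese, a place that snR37 held in both CRN libraries in control medium.

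In CRN/PPN1, 46 of the 73 members fell in manganese and 0 rose, where 15.1% of all tested genes were called lower and 10.1% higher. No member was higher at an unadjusted p under 0.05, and DESeq2 called 41 lower and 0 higher. The median log2 fold change was -1.71, against 0.01 for all tested genes, and stood at -1.70 for the box H/ACA members (24 of 29 fell) and -1.71 for the box C/D members (18 of 39 fell). Both libraries in manganese were below both in control medium for 65 of the 80 members and above them for 0. Of all tested genes 35.2% lay below and 34.8% above in this way.
snR57, a box C/D guide for G1572 of the small-subunit rRNA, had 6.15 and 13.2 CPM in manganese, against 110.2 and 193 CPM in control medium, a log2 fold change of -3.97 ± 0.41 (edgeR, adjusted p = 4.38e-06). snR191, a box H/ACA guide for U2258 and U2260 of the large-subunit rRNA, had 15.2 and 11.2 CPM in manganese, against 147 and 176 CPM in control medium, or -3.61 ± 0.32 on the log2 scale. snR10 had 18.1 and 11.8 CPM in manganese, against 120.0 and 181 CPM in control medium, and snR78 had 2.91 and 4.28 CPM in manganese, against 42 and 41.3 CPM in control medium. snR55, a guide for U1269 of the small-subunit rRNA, also fell, by 3.66 on the log2 scale, but the call was lost without CRN/PPN1 control replicate 1. None of these 5 overlapped between the media. snR63 had 26.5 and 142 CPM in manganese, against 127 and 241 CPM in control medium, which overlapped and did not pass (edgeR, adjusted p = 0.0953), and without replicate 2 in manganese its log2 fold change was -2.78 and passed.
Of the 73, 43 were called lower in both strains, 18 in CRN alone and 3 in CRN/PPN1 alone (snR39, snR55 and snR86), by the test within each strain. The difference between the strains' responses was -1.40 for snR39, -2.83 for snR55 and -0.53 for snR86, and none of these passed. With library totals as the scale it passed for snR55 (-3.65) and snR86 (-1.33). The call of snR86 in CRN/PPN1 (-1.13 ± 0.27) was lost with library totals as the scale (-0.47), without control replicate 2 (-0.95) and without manganese replicate 1 (-0.81). Over all the comparisons tested, 7 members had no call. The same joint counts were not made over all tested genes, so they describe the members alone. Of 214 protein-coding genes with a coding length of at most 300 bases, 135 fell in CRN/PPN1 and 154 in CRN, with median log2 fold changes of -1.56 and -3.01. The part of gene length in the values of the snR genes was not tested.

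**Figure D2:**
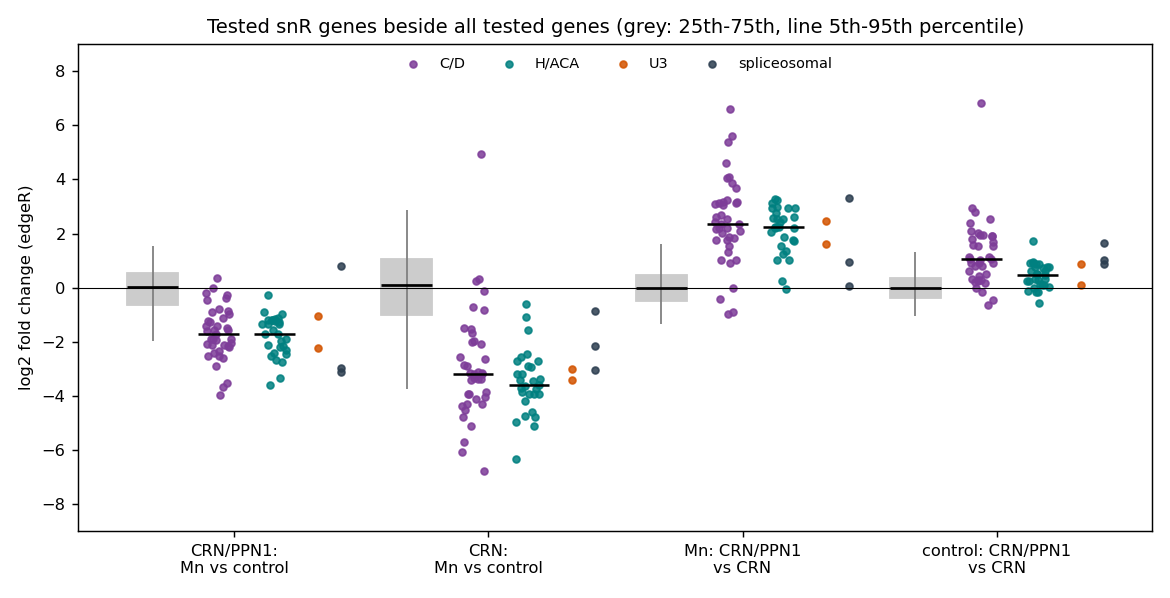
Log2 fold change of each tested snR gene in 4 comparisons, one point per gene coloured by class, with a line at the median of the 39 box C/D and 29 box H/ACA genes; grey boxes and lines show the 25th to 75th and the 5th to 95th percentile of all 5778 tested genes. Both class medians lie below 0 in the manganese comparisons, and above 0 in CRN/PPN1 against CRN.

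In manganese, the snR genes were higher in CRN/PPN1 than in CRN. Of the 73 members, 54 were called higher and 0 lower, where 10.4% of all tested genes were called higher and 7.37% lower. No member was lower at an unadjusted p under 0.05, and DESeq2 called 55 higher and 0 lower. The median log2 fold change was 2.25, against -0.01 for all tested genes, and 2.36 for the box C/D members (27 of 39 rose) and 2.25 for the box H/ACA members (24 of 29 rose). Of the 214 short coding genes, 115 were called higher, with a median of 1.18.
snR56 was higher by 5.37 ± 0.75 on the log2 scale (edgeR, adjusted p = 0.000101), with 7.77 and 32.9 CPM in CRN/PPN1, against 0 and 0.857 CPM in CRN. snR63 was higher by 4.10 ± 0.64, from the levels given above. snR71, a guide for A2946 of the large-subunit rRNA, had 2.27 and 21.7 CPM in CRN/PPN1, against 0.389 and 0.514 CPM in CRN, at least 21.8-fold higher by the limit that at most 3 counts in each CRN library allow. It rests on 1 library, since without CRN/PPN1 manganese replicate 2 the log2 fold change was 2.24 and did not pass. snR87 and snR61, a guide for A1133 of the large-subunit rRNA, were likewise at least 11.3-fold and 6.86-fold higher on the counted strand. With either strand counted snR87 was higher by 1.58 on the log2 scale, and snR61 did not pass when either CRN library in manganese or CRN/PPN1 replicate 2 was left out. Among the members whose difference between the strains did not pass were snR19 (0.05 ± 0.24), snR86 (-0.03 ± 0.26) and snR30 (0.25 ± 0.28).

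In control medium fewer members were called between the strains. CRN/PPN1 was higher for 7 of the 73 members and lower for 0, where 4.45% of all tested genes were called higher and 4.45% lower. At an unadjusted p under 0.05, 20 were higher and 0 lower, and DESeq2 called 8 higher and 0 lower. The 7 were the box C/D genes snR77, snR78, snR57, snR39B and snR62, the box H/ACA gene snR3 and the U1 gene snR19. The count was 1 without CRN/PPN1 control replicate 2, 2 without CRN control replicate 2, 3 without CRN/PPN1 control replicate 1, and 11 without CRN control replicate 1 or without CRN/PPN1 manganese replicate 2, so single libraries decided it. Scaling to library totals in place of TMM raised it to 27, and this scaling shifted the median of all tested genes by 0.51 in this comparison. The median log2 fold change was 0.78, against -0.01 for all tested genes, and 1.06 for box C/D and 0.48 for box H/ACA members.
snR39B had 109 and 106 CPM in CRN/PPN1, against 31 and 43.3 CPM in CRN, a log2 fold change of 1.53 ± 0.27 (edgeR, adjusted p = 0.00143). snR77 had 37.1 and 45.7 CPM in CRN/PPN1, against 14.2 and 7.87 CPM in CRN, or 1.91 ± 0.47 on the log2 scale. snR39B was called whichever of the 8 libraries was left out. snR3, which guides 3 described pseudouridines of the large-subunit rRNA, had 43.7 and 42.2 CPM in CRN/PPN1, against 18 and 8.43 CPM in CRN, or 1.71 ± 0.45. With reads of either strand counted its value was 1.02 and did not pass. The 2 libraries of each strain did not overlap for any of these 3. Across the 73 members the log2 fold change was more positive for shorter genes (Spearman's rho -0.56 with gene length) and for genes of lower mean level (rho -0.58). Within the 39 box C/D members the values were -0.56 for length and -0.63 for level, and within the 29 box H/ACA members -0.27 and -0.11. These points share the same 4 libraries. In the other comparisons between groups, rho with length over the 73 lay between -0.20 and 0.03.

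The test of the difference between the strains' manganese responses (the interaction) called 28 of the 73 members higher, meaning that they fell less in CRN/PPN1 than in CRN, and 0 lower, where 15.0% of all tested genes were called higher and 11.6% lower. A single member, snR19, was lower at an unadjusted p under 0.05, and DESeq2 called 28 higher and 0 lower. With library totals as the scale the counts were 22 higher and 3 lower, and the median of all tested genes shifted by -0.82. The median was 1.44, against -0.02 for all tested genes and 1.39 for the 214 short coding genes. Of the 28, 16 were box H/ACA and 11 box C/D.
snR13, a guide for A2280 and A2281 of the large-subunit rRNA, had 22.7 and 36.2 CPM in manganese, against 34.3 and 37.4 CPM in control medium, in CRN/PPN1. In CRN it had 1.17 and 3.26 CPM in manganese, against 39.6 and 40.5 CPM in control medium. The media overlapped in CRN/PPN1 and not in CRN. The interaction was 3.84 ± 0.58 on the log2 scale (edgeR, adjusted p = 0.000162). It was 4.56 ± 0.81 for snR63 (adjusted p = 0.000625, edgeR) and 4.24 ± 0.93 for snR56 (adjusted p = 0.00302, edgeR). snR71 and snR87 also passed, but the call was lost for snR71 when any of 6 libraries was left out and for snR87 when any of 5 was. snR71 then had as little as 1.69, without CRN/PPN1 manganese replicate 2, and snR87 had 1.55 with reads of either strand counted. snR57, the member with the largest fall in CRN/PPN1, had an interaction of -0.06 ± 0.75, and snR191 had 0.33 ± 0.45, neither of which passed.

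**Figure D3:**
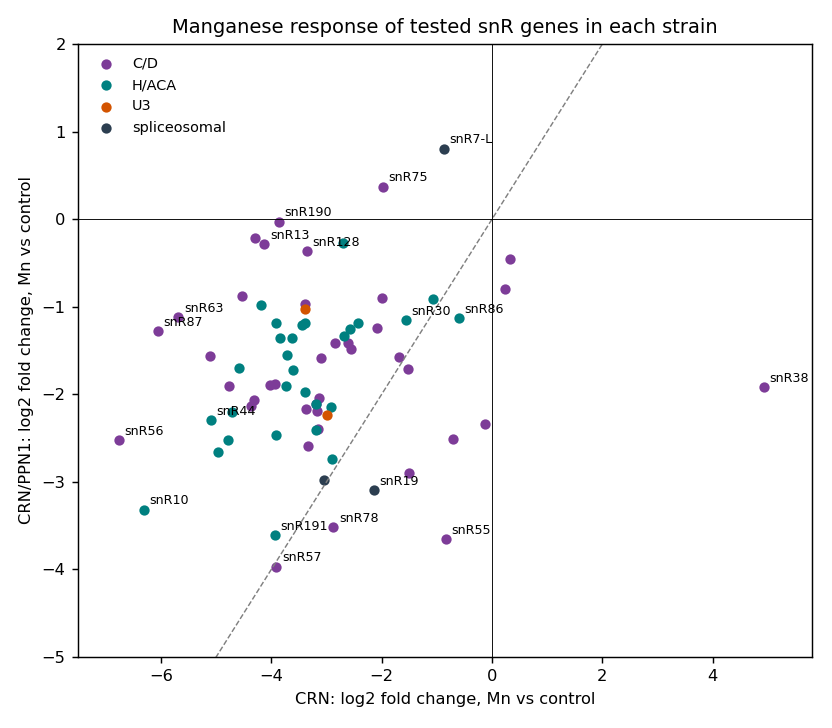
Log2 fold change in manganese against control of the 73 tested snR genes in CRN/PPN1 (vertical) and in CRN (horizontal), coloured by class, with named genes labelled and equal values on the dashed line. Genes above the line, such as snR13, snR63 and snR56, fell less in CRN/PPN1, and snR57 lies close to it.

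**Figure D4:**
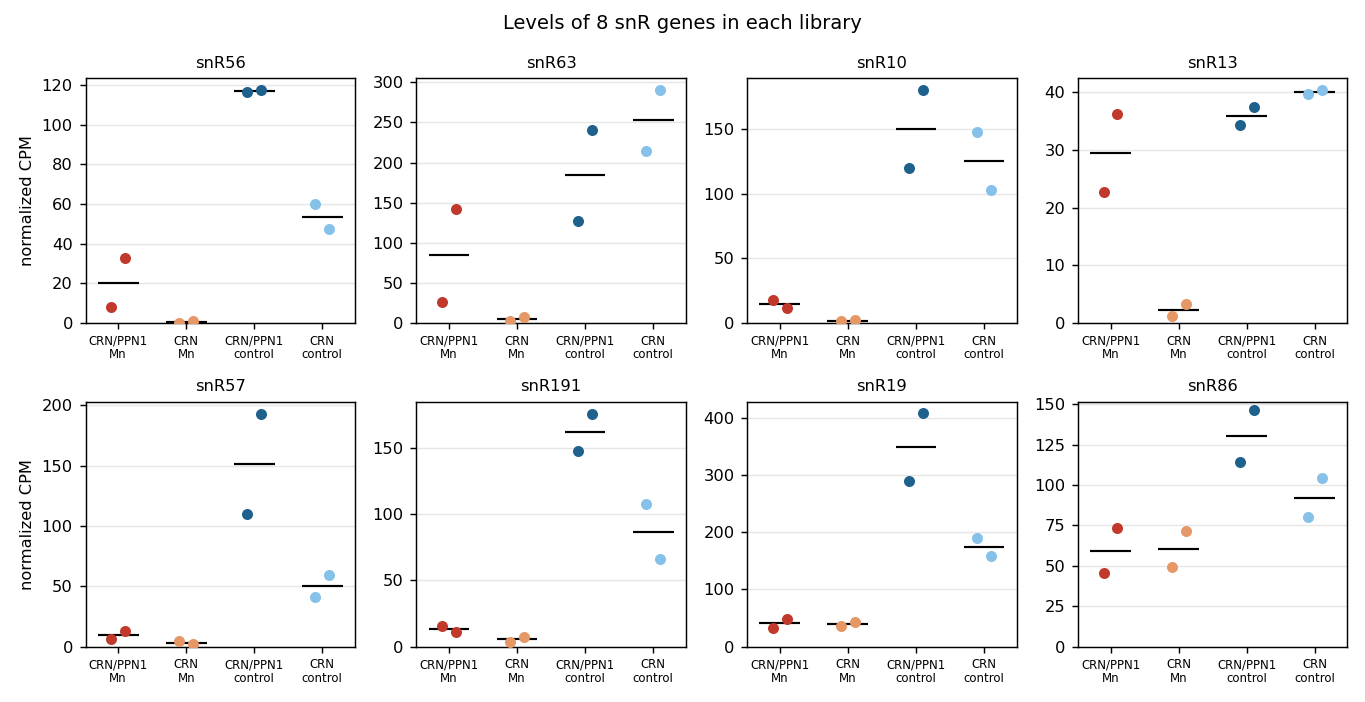
Levels of 8 snR genes in normalized CPM, one point per library and a line at the mean of the 2 libraries of a group. The first 4 have a called interaction; snR57 and snR191 fell in both strains, and the strains overlap in manganese for snR19 and snR86.

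Among the members needed to cut the rRNA precursor, the U3 genes fell in both strains. snR17a had 76.4 and 159 CPM in manganese, against 456 and 657 CPM in control medium, in CRN/PPN1, and 30.0 and 45.9 CPM in manganese, against 448 and 157 CPM in control medium, in CRN. snR17b had 39.5 and 65.1 CPM in manganese, against 99.2 and 115 CPM in control medium, in CRN/PPN1, and 10.7 and 8.23 CPM in manganese, against 142 and 57.3 CPM in control medium, in CRN. Their log2 fold changes were -2.24 ± 0.42 and -1.03 ± 0.34 in CRN/PPN1, and -2.99 ± 0.43 and -3.39 ± 0.39 in CRN. The call of snR17b in CRN/PPN1 was lost when either control library or replicate 1 in manganese was left out, with values of -1.13, -0.92 and -0.70, and it was -0.37 with library totals as the scale and -0.99 with either strand counted, neither of which passed. The genes are 86.3% identical over 461 aligned bases, over their annotated spans, and reads that map to both were not counted, so neither level is the whole of U3. snR17a also overlaps IRC13.
snR30, an essential box H/ACA snoRNA that guides no modification, had 26.2 and 46 CPM in manganese, against 89 and 72.2 CPM in control medium, in CRN/PPN1, and 27.4 and 33.1 CPM in manganese, against 107 and 73.6 CPM in control medium, in CRN. It fell in both strains (-1.16 ± 0.28 in CRN/PPN1 and -1.57 ± 0.28 in CRN). Scaled to library totals these values were -0.49 and -0.06, and neither passed. The call in CRN/PPN1 was also lost without control replicate 1 or manganese replicate 1. snR128 (U14), which both guides a methylation at C414 of the small-subunit rRNA and takes part in cutting, had 35.3 and 39.5 CPM in manganese, against 36.3 and 60.0 CPM in control medium, in CRN/PPN1, and these overlapped. In CRN it had 2.34 and 5.83 CPM in manganese, against 58.2 and 27.5 CPM in control medium, and the interaction was 2.99 ± 0.60 (edgeR, adjusted p = 0.00166). snR190, its neighbour in the same cluster, gave 297 and 28.1 CPM in CRN in control medium. Its interaction of 3.84 ± 0.96 came to 1.32 without replicate 1 of that group and did not pass. snR4, which like snR45 guides an acetylation of the small-subunit rRNA, fell in both strains (-2.06 ± 0.28 in CRN/PPN1 and -4.31 ± 0.31 in CRN).

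Of the spliceosomal members, snR19 (U1) had 33 and 48.7 CPM in manganese, against 290.1 and 409 CPM in control medium, in CRN/PPN1, and 36.4 and 42.2 CPM in manganese, against 190.2 and 158 CPM in control medium, in CRN. It fell in both strains, and by more in CRN/PPN1 (-3.10 ± 0.25) than in CRN (-2.14 ± 0.24), with an interaction of -0.95 ± 0.33 (edgeR, adjusted p = 0.041) that is short of the fold limit. Its call in control medium between the strains (1.01 ± 0.23) was lost without replicate 2 of either strain, and with DESeq2 the value was 0.97. Scaled to library totals its fall in CRN came to -0.65 and did not pass. snR14 (U4) had 0.324 and 2.96 CPM in manganese, against 9.39 and 17 CPM in control medium, in CRN/PPN1, and 1.17 and 0.514 CPM in manganese, against 8.05 and 6.18 CPM in control medium, in CRN, and fell in both strains by about 3 on the log2 scale. The call was lost in CRN with library totals as the scale (-1.57) and without control replicate 1 or manganese replicate 2, and in CRN/PPN1 without control replicate 2 or manganese replicate 1. Of all reads over snR14 69.5% lay on the other strand, and with either strand counted its interaction of 0.06 ± 0.93 became 2.21 and passed. snR7-L (U5) had 25.2 and 1.32 CPM in CRN/PPN1 in manganese, against 1.75 and 0.857 CPM in CRN in manganese, a difference that came to 0.05 on the log2 scale without the first of these libraries. Reads over the span that snR7-L shares with snR7-S were not counted, so its level is not the whole of U5. snR6 (U6) had 38 counts in all and was not tested. The U2 gene, LSR1, has an ID outside the rule. It had 17.2 and 52.3 CPM in manganese, against 85.7 and 111 CPM in control medium, in CRN/PPN1, and 48.7 and 65.3 CPM in manganese, against 76.8 and 57.9 CPM in control medium, in CRN, and fell in CRN/PPN1 only by the test within each strain (-1.50 ± 0.37, against -0.24 ± 0.36 in CRN). The difference between these values was -1.27 ± 0.51 (edgeR, adjusted p = 0.0734).

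Of the 80 genes, 8 lie in an intron of another gene, 17 lie in 5 clusters and 55 stand alone. In CRN/PPN1 the median log2 fold change was -2.30 for the 7 intron members tested and -2.15 for the 14 cluster members tested, against -1.57 for the 52 that stand alone. No median over the intron members is given for CRN, where snR24, snR38 and snR54 had at most 3 counts in each library in control medium and at most 11 in manganese. Of the intron members, snR18, snR24, snR38 and snR54 had 41 to 91 counts in all, and snR59, which was not tested, had 53. Reads over an intron snoRNA that come from unspliced precursor of its host count for the snoRNA, and the sources cannot be told apart.
snR44, within RPS22B, which encodes a ribosomal protein, had 109 and 44.7 CPM in manganese, against 438 and 319 CPM in control medium, in CRN/PPN1, and 12.5 and 20.4 CPM in manganese, against 706 and 424 CPM in control medium, in CRN. Its log2 fold changes of -2.30 ± 0.36 and -5.09 ± 0.41 stood beside -2.04 ± 0.23 and -4.89 ± 0.26 for RPS22B, all 4 called. snR191 lies within NOG2, which encodes a GTPase of ribosome assembly. It fell in both strains (-3.61 ± 0.32 in CRN/PPN1 and -3.94 ± 0.34 in CRN), where NOG2 had 0.09 ± 0.20 and -0.61 ± 0.21, neither called. snR39, within RPL7A, had -2.90 ± 0.94 in CRN/PPN1 and -1.50 ± 0.85 in CRN, of which the first passed, and it did not without replicate 2 in either medium. RPL7A fell in CRN (-2.69 ± 0.22) and not in CRN/PPN1 (-0.40 ± 0.21) by the test within each strain, and the interaction of 2.30 ± 0.30 passed (edgeR, adjusted p = 6.97e-05). Over the 8 host genes the medians were -0.11 in CRN/PPN1 and -1.73 in CRN.

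The largest cluster spans 7 box C/D genes on chromosome XIII, snR78, snR77, snR76, snR75, snR74, snR73 and snR72 from its 5′ end, which are cut from 1 transcript. snR78 and snR77 were lower in manganese and higher in CRN/PPN1 than in CRN in control medium, while snR76, which follows, had 34.3 and 55.3 CPM in CRN/PPN1 and 29.7 and 46.6 CPM in CRN in control medium, with overlap. snR76 had 9.39 and 14.5 CPM in CRN/PPN1, against 0.779 and 1.89 CPM in CRN, in manganese, and an interaction of 2.87 ± 0.66 (edgeR, adjusted p = 0.00427). That of snR78 was -0.65 ± 0.78 and did not pass. snR75, a guide for G2288 of the large-subunit rRNA, had 18.4 and 11.5 CPM in manganese, against 10.6 and 12.6 CPM in control medium, in CRN/PPN1, and did not pass. In CRN it fell by 1.98, a call lost with library totals as the scale (-0.46) and without control replicate 1 or manganese replicate 2. The last 3 had 34 to 62 counts in all, and of them snR74 was tested, with no call. The strain calls of snR78 and snR77 in control medium were lost when a single library of the comparison was left out, for snR77 all but CRN replicate 1. With libraries left out, the values stayed between 1.32 and 2.12 for snR78 and between 1.54 and 2.39 for snR77.
In the cluster of snR41, snR70 and snR51, snR70 fell in both strains (-2.11 ± 0.37 in CRN/PPN1 and -3.20 ± 0.42 in CRN), and so did snR41 (-2.59 ± 0.73 and -3.33 ± 0.83). The fall of snR41 in CRN/PPN1 was not called by DESeq2 or without control replicate 1. snR51 passed in CRN (-2.55 ± 0.70), but not with library totals as the scale (-1.11) or without control replicate 2 (-2.06). In CRN/PPN1 its -1.49 ± 0.62 did not pass, but it did with either strand counted (-2.93) and without manganese replicate 2 (-3.39). In that of snR57, snR55 and snR61, snR57 fell in both strains, while snR55 had -0.83 ± 0.99 in CRN, which did not pass. snR61 had 0 counts in both CRN libraries in manganese and at most 3 in each CRN library in control medium, so no fold is given.

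**Figure D5:**
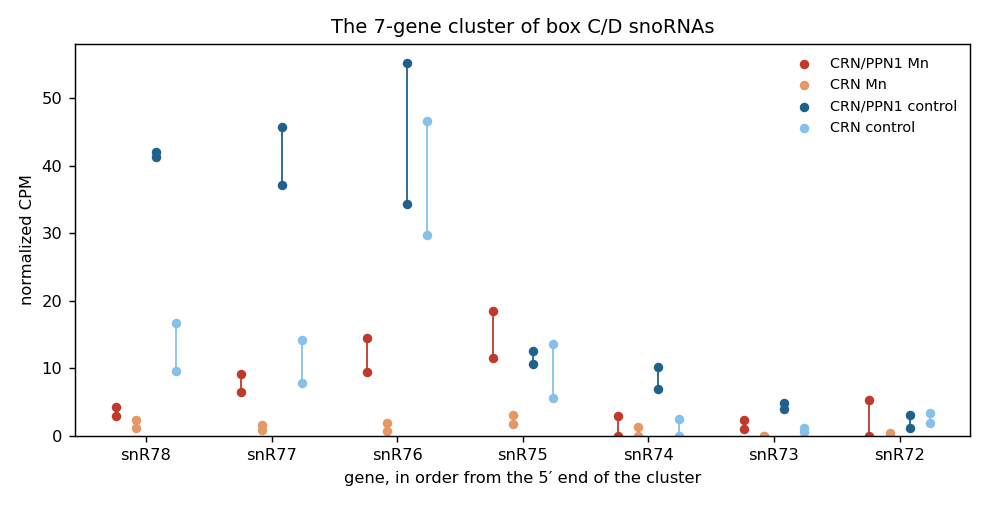
Normalized CPM of the 7 genes of the cluster in each library, in gene order, with a bar between the 2 libraries of a group. In control medium CRN/PPN1 lies above CRN for snR78 and snR77 and overlaps it for snR76.

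The highest mean levels over the 8 libraries were those of snR83, snR37, snR44, snR17a and snR4. The 10 highest members of a library held 49.5% to 57.9% of its snR counts. snR83, which guides pseudouridines at U1290 and U1415 of the small-subunit rRNA, had 210.1 and 157 CPM in manganese, against 601 and 589 CPM in control medium, in CRN/PPN1, and 19.1 and 28.8 CPM in manganese, against 715 and 441 CPM in control medium, in CRN. Its log2 fold changes were -1.70 ± 0.26 in CRN/PPN1 and -4.59 ± 0.29 in CRN. snR37, a guide for U2944 of the large-subunit rRNA, had 64.7 and 142 CPM in manganese, against 598 and 589 CPM in control medium, in CRN/PPN1, and 17.9 and 25.4 CPM in manganese, against 736 and 467 CPM in control medium, in CRN. The groups of each strain did not overlap for either gene, and the strains overlapped in control medium. Per kilobase of gene, snR4 led with a mean level of 1354 normalized CPM, then snR33 with 1332 and snR44 with 1228, where snR86 stood at 85.2 and snR30 at 97.8.

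By target, the 11 tested box C/D members described for the small-subunit rRNA alone had a median log2 fold change in manganese of -2.40 in CRN/PPN1 and -3.20 in CRN, against -1.58 and -3.38 for the 22 described for the large-subunit rRNA alone. The 6 box H/ACA members for the small-subunit rRNA had -1.46 and -3.81, against -1.94 and -3.67 for the 18 for the large-subunit rRNA. No difference between the subunits was tested.

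The proteins of the particles did not move as 1 group. Of the 4 box C/D core proteins, SNU13, which binds the box C/D motif, fell in both strains in manganese (-1.79 ± 0.24 in CRN/PPN1 and -4.14 ± 0.27 in CRN) and was lower in CRN/PPN1 than in CRN in control medium (-1.51 ± 0.24). NOP58 rose in CRN/PPN1 (1.06 ± 0.19), and in CRN its 0.70 ± 0.20 (edgeR, adjusted p = 0.00534) was short of the fold limit. Its interaction of 0.35 ± 0.27 did not pass. NOP1, the methyltransferase, and NOP56 had no call. Of the 4 box H/ACA core proteins, NHP2 (-1.37 ± 0.26 and -3.63 ± 0.28) and NOP10 (-1.28 ± 0.27 and -4.02 ± 0.30) fell in both strains, GAR1 fell in CRN (-1.13 ± 0.19), and CBF5, the pseudouridine synthase, had no call. The list medians in manganese were 0.06 in CRN/PPN1 and -0.72 in CRN for box C/D core proteins, and -0.47 and -2.38 for box H/ACA core proteins. NHP2 had 251 and 203 CPM in manganese, against 668 and 504 CPM in control medium, in CRN/PPN1, and 131 and 102 CPM in manganese, against 1802 and 1075 CPM in control medium, in CRN. In control medium NHP2 was also lower in CRN/PPN1 than in CRN (-1.30 ± 0.26), where 4.45% of all tested genes were called lower. All 4 proteins of each list had negative values there. Between the strains in manganese all 4 of each list had positive values, and NOP10 alone was called higher in CRN/PPN1 (2.04 ± 0.28).
Of 9 assembly factors, BCD1 rose (1.43 ± 0.30 in CRN/PPN1 and 2.44 ± 0.31 in CRN) and TAH1 fell (-1.69 ± 0.31 and -2.78 ± 0.31) in both strains, PIH1 rose in CRN/PPN1 and RVB1 fell in CRN. The interaction passed for RVB1 (1.04 ± 0.27) and not for PIH1 (0.56 ± 0.58). Of 16 processing and decay factors, NAB3 and SEN1, which act in ending non-coding transcripts, rose in both strains, and LRP1, a cofactor of the nuclear exosome, fell in both (-1.37 ± 0.23 and -2.89 ± 0.23). NRD1, the partner of NAB3, and LHP1, which binds the ends of new RNA polymerase III transcripts, fell in CRN (-1.27 ± 0.23 and -1.49 ± 0.19). In CRN/PPN1 NRD1 had -0.91 ± 0.23 (edgeR, adjusted p = 0.00574), short of the fold limit, and LHP1 had -0.09 ± 0.18. The interaction was 0.36 ± 0.33 for NRD1, which did not pass, and 1.39 ± 0.26 for LHP1, which did. In control medium LRP1 was lower in CRN/PPN1 than in CRN (-1.45 ± 0.22). In manganese RVB1 was higher in CRN/PPN1 than in CRN (1.32 ± 0.19), and BCD1 (-1.09 ± 0.27) and SEN1 (-1.02 ± 0.21) were lower.

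The 7 members that were not tested, snR53, snR58, snR59, snR6, snR65, snR72 and snR73, had 14 to 55 counts in all. With genes of at least 10 counts in total tested, 47 of the 80 members fell in manganese in CRN/PPN1 and 63 in CRN. Of all 6282 genes tested in this way, 877 were called lower in CRN/PPN1 and 1404 in CRN. Libraries were made with TruSeq RNA Sample Prep Kits v2, whose usual protocol selects RNA by its poly(A) tail, so the counts are of the reads such a library holds over each locus and not of the pool of mature RNA. The 2 cannot be told apart here, nor can less RNA per cell and a larger total of other RNA.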

How the data were processed

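Single-end reads were trimmed by the authors with Trimmomatic 0.36, and mapped and counted with STAR 2.5.3a on the Ensembl annotation of R64-1-1 without reads of more than 1 mapping place. The deposited files hold raw counts per gene for either strand, the gene's strand and the opposite strand, of which the last was used (the series table equals it in 57008 of 57008 values).

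The tests used edgeR 4.0.16 under R 4.3.3 (TMM normalization and quasi-likelihood F test, two-sided, Benjamini-Hochberg adjustment) over the 5778 genes that reached 2 CPM in 4 or more of 8 libraries, in a model with 4 groups and no replicate block. Normalized CPM are counts divided by the TMM-scaled library size. The common biological coefficient of variation was 0.18, with 10.8 prior degrees of freedom. Calls needed an adjusted p no higher than 0.05 and a log2 fold change of 1 or more in size. Folds against groups of 3 or fewer counts per library were bounded by that floor. DESeq2 1.42.0, its size factors, library totals, a looser filter, either strand, a replicate block, no fold limit and leaving out each library were alternatives. The main edgeR fit was tested on simulated data, for CRN/PPN1 in manganese against control and for the strains in control medium. The alternatives, the bounds and the sequence steps were not tested in this way.

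Classes and targets came from the deposited gene descriptions. Clusters are genes of 1 strand less than 500 bases apart. Genes were named by rule: up to 5 called members with the largest change per comparison, the 5 highest, the U3 and spliceosomal genes, those in introns or in clusters of at least 3, and snR56, snR57, snR191 and snR63; snR128, snR30, snR86, snR190, and snR62, snR45 and snR33 where mentioned, were added after their values were seen. The members and lists were chosen with earlier results of these data known.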

Additional observations from a re-analysis of the deposited data

Results flagged for a closer look

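For 17 of 39 named members the test of the interaction passed an adjusted p of 0.05 (edgeR, Benjamini-Hochberg) with no fold limit. It tests a difference between CRN/PPN1 and CRN in the response to manganese. Of all 5778 tested genes, 1008 passed in this way with a positive and 756 with a negative value, and of the 73 members 28 and 1. Some of the 39 were named for a large interaction or after their values were seen, so the 17 are a description. In 16 of the 17 the difference was positive, a smaller fall in CRN/PPN1 on the log2 scale. Among box C/D members it was 4.78 for snR87, 4.56 for snR63, 4.24 for snR56, 4.08 for snR71, 3.84 for snR13, 3.84 for snR190, 3.54 for snR64, 2.99 for snR128, 2.87 for snR76, 2.24 for snR4 and 1.51 for snR39B. Among box H/ACA members it was 2.99 for snR10, 2.89 for snR83, 2.80 for snR44 and 2.27 for snR37, and for the U3 gene snR17b it was 2.36. In snR19, the U1 gene, it was -0.95, a larger fall in CRN/PPN1. The calls of snR87, snR71, snR190 and snR39B were lost when single libraries were left out. That of snR39B had 1.25 without CRN control replicate 2, 1.33 without CRN manganese replicate 2, 1.49 without CRN/PPN1 control replicate 2 and 0.72 with library totals as the scale, none of which passed.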

How the results depend on the processing

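The counts of members called up or called down stayed within 1.5 times the main count in 138 of 150 pairs of a count and an alternative. These 138 include pairs in which both counts were 0, and pairs that left out a library outside the comparison. Scaled to library totals, which shifted the median of all genes by 0.67 in CRN/PPN1 and 1.49 in CRN in manganese, 30 members fell in CRN/PPN1 in place of 46, 27 in place of 7 were higher in CRN/PPN1 in control medium, and 3 had a negative interaction in place of 0; 1 did without the fold limit. Leaving out 1 library at a time gave 33 to 61 falls in CRN/PPN1, 56 to 61 in CRN, 38 to 55 members higher in CRN/PPN1 in manganese, 1 to 11 higher and 0 to 1 lower in control medium, and an interaction called positive in 21 to 35 and negative in 0 to 4. The interaction of 4 negative members came without CRN/PPN1 manganese replicate 2. Of 195 fold changes of 39 named genes, 46 changed their call or direction when 1 library was left out; in control medium snR190 had 1.87 without CRN control replicate 1 and -1.53 without replicate 2, against -0.66 with both. The labels do not say whether equal replicate numbers mark paired cultures. The deviations of same-numbered libraries from their group means correlated by 0.036 to 0.217 over all genes, above 0.1 in 5 of 6 pairs of groups, which leaves pairing unsettled. With a replicate block 52, 60, 6, 56 and 35 members were called where the fit without it called 46, 61, 7, 54 and 28. Among the named members, the falls of snR63 (-1.33), snR51 (-1.69) and snR18 (-2.60) in CRN/PPN1 then passed. So did snR51 between the strains in manganese (1.68) and the interaction of snR75 (2.25). The strain difference of snR19 in control medium (0.98) no longer passed. The causes of these changes were not tested. Members of under 100 counts in all had wide errors, and a change there may not have been detectable at this depth.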

Other observations

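Reads on the strand opposite to the one counted made up 5.72% to 16.0% of the reads over the snR genes in a library, against 6.67% to 9.32% over all genes, with the highest shares for the snR genes in CRN in manganese (16.0% and 11.3%). A few genes held most of them. They were 74.5% of the reads over snR43, a box H/ACA guide for U966 of the large-subunit rRNA, with 1863 reads against 637 counted, 85.4% over snR53, 68.4% over snR87, 45.2% over snR3 and 36.5% over snR11. For snR37, one of the highest members, they were 0.401%. These genes were picked out after their values were seen.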
